A study of Mus musculus with 19 samples.

Results

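The chemosensory receptor genes are the olfactory receptors (Olfr), the vomeronasal receptors of type 1 (Vmn1r) and type 2 (Vmn2r), the trace amine-associated receptors (Taar) and the taste receptors (Tas1r and Tas2r). All genes whose symbol begins with one of these family names, with a digit required after Taar, were taken from a table of extrachromosomal circular DNA (eccDNA) per gene, which gave 178 of its 8336 genes. These were 114 Olfr, 29 Vmn1r, 33 Vmn2r, 1 Taar and 1 Tas2r genes, and no Tas1r gene. The rule reads the gene symbols and no measured value, but these families were picked with earlier results of the same data known. The annotation types 158 of them as protein coding and 20 as pseudogenes or other transcripts.

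EccDNA was sequenced from the cervical spinal cord of 19 mice, with 1 library per animal. The 9 ALS animals were symptomatic males of B6.Cg-Tg(SOD1*G93A)1Gur/J mice, which overexpress a mutant human superoxide dismutase 1 gene (hSOD1G93A) in a constitutive manner and were taken at an age of 18 to 21 weeks. The 10 control animals were C57BL/6J mice matched for sex and age. They carry no human SOD1 transgene, so that the mutation and the overexpression cannot be told apart, and as animals without timely motor symptoms were left out, the ALS group holds affected animals only. From 400 ng of DNA per animal, linear DNA was removed with exonuclease V, circles were amplified by rolling circle amplification (RCA), and each circle was recognized on the mm10 build by split reads, which are reads that cross its junction. The value of a gene, PpGC (produced per gene eccDNA), is the sum of the split reads of the eccDNAs that overlap the gene, scaled up by the ratio of the longest gene's length to its own, and is given as log2(PpGC + 1). Short genes thus get high values for few reads. Circles needed at least 2 split reads to be counted, a gene at 0 had no such circle, and an eccDNA that touches several genes counts for each of them.

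Chemosensory receptors are membrane proteins of sensory neurons in the nose, the vomeronasal organ and the tongue. The odorant receptors, the type 1 vomeronasal receptors and the bitter taste receptors have compact genes, the coding part of which typically lies in a single exon, while type 2 vomeronasal receptors carry a large extracellular domain and have longer, multi-exon genes. The genes stand in tandem clusters that grew by duplication, so that neighbours are often near copies, and they are rich in pseudogenes. In sensory neurons, a single odorant receptor allele is chosen for expression and the remainder stays in compact heterochromatin. In most other tissues, the spinal cord included, these genes are regarded as silent. The present assay reads DNA and not RNA, so that neither their silence nor the cell types of the tissue were measured here.

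The receptor genes with an eccDNA numbered 23, 25, 30, 15, 16, 10, 10, 13 and 18 in ALS samples 1 to 9. In control samples 1 to 10 they numbered 14, 2, 2, 3, 1, 3, 2, 3, 3 and 0. The ALS samples thus ranged from 10 to 30 with a mean of 17.8 ± 6.92 (SD, n = 9), and the control samples from 0 to 14 with a mean of 3.30 ± 3.89 (SD, n = 10). In 6 of the 9 ALS samples the number was above that of every control sample, and the groups overlapped only through control sample 1, which alone held 42.4% of the 33 receptor values above 0 in controls. Without control sample 1, the control mean was 2.11 ± 1.05 (SD, n = 9) and the ratio of the means 8.42 instead of 5.39. The ratio of 5.39 lies close to that of all genes, 5.35, as the ALS samples held an eccDNA in 1301 ± 459 (SD) genes and the controls in 243.4 ± 207.9 (SD). Without control sample 1, the ratio of all genes was 6.84, below the 8.42 of the receptor genes.

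**Figure D1:**
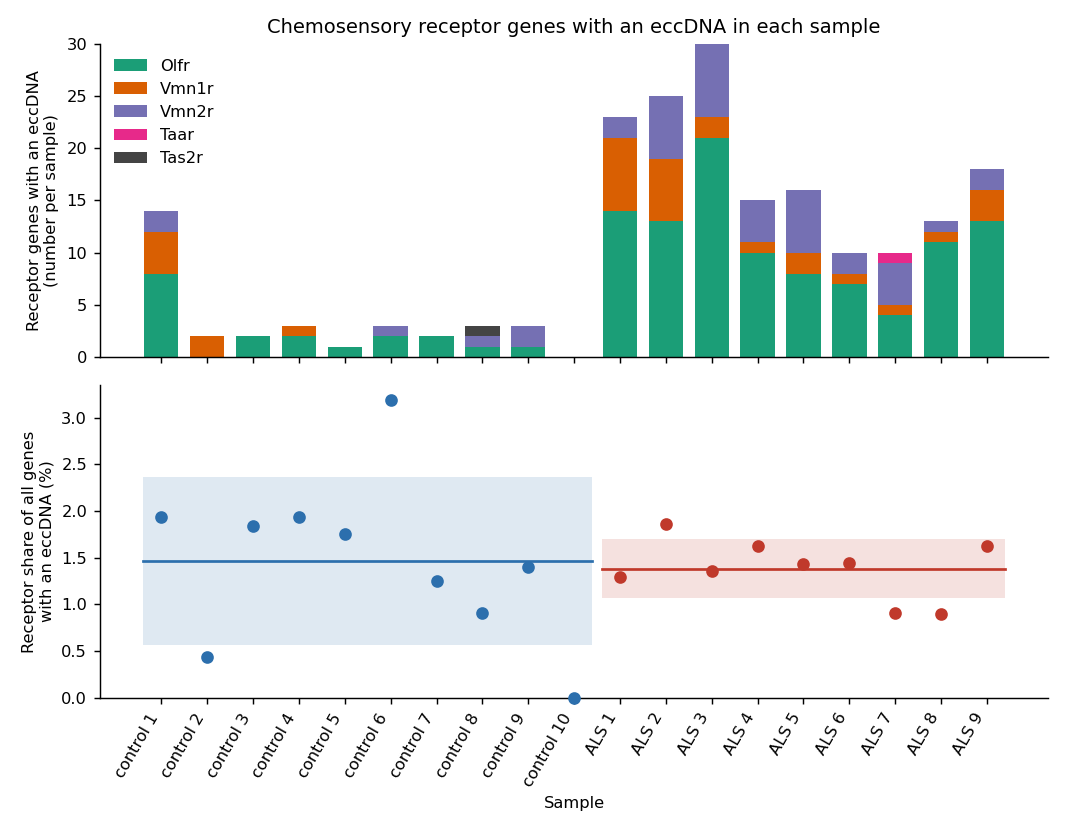
The upper panel stacks the number of receptor genes with an eccDNA in each sample by family, and the lower panel gives these genes as a percent of all genes with an eccDNA in that sample, with the group mean as a line and 1 SD as a band. The counts reach 30 in ALS sample 3 and 14 in control sample 1, while the mean shares are 1.38% in ALS and 1.46% in controls.

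Set against the load of each library, the receptor genes of the groups overlapped. They made up 1.38 ± 0.32% (SD, n = 9) of the genes with an eccDNA in an ALS sample (0.903 to 1.857%) and 1.46 ± 0.90% (SD, n = 10) in a control sample (0 to 3.19%). All ALS shares lay within the range of the control shares. Pooled over the samples, the share was 1.366% in ALS and 1.356% in controls. With only genes of at least 4 split reads counted, the share averaged 1.42 ± 0.37% (SD) over ALS samples and 2.23 ± 1.38% (SD) over control samples, and the receptor genes numbered 12.2 ± 5.04 and 3.00 ± 2.98, a ratio of 4.07. Olfr genes numbered 1.90 ± 2.28 (SD, n = 10) per control sample and 11.2 ± 4.89 (SD, n = 9) per ALS sample. Vmn1r genes numbered 0.70 ± 1.34 and 2.67 ± 2.29, and Vmn2r genes 0.60 ± 0.84 and 3.78 ± 2.17. Control sample 1 held 8 of the 19 Olfr values and 4 of the 7 Vmn1r values above 0 in controls. Without control sample 1, the control mean was 1.22 ± 0.83 (SD, n = 9) for Olfr genes, with a ratio of ALS to control of 9.18 instead of 5.91, and 0.33 ± 0.71 (SD, n = 9) for Vmn1r genes, with a ratio of 8.00 instead of 3.81. The means of these 3 families were thus higher in ALS, while the 2 other families had a single gene each. No test was made of these numbers, as the genes were singled out with earlier results of the same data known. Taar7a, a trace amine-associated receptor on chromosome 10, held an eccDNA of 4 split reads in ALS sample 7 alone (log2 PpGC 14.01), and Tas2r113, a bitter taste receptor on chromosome 6, held 1658 split reads in control sample 8 alone (22.91).

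Which receptor genes carried the eccDNA hardly recurred between animals. Of the 178 genes, 164 (92.1%) held an eccDNA in a single sample, 13 in 2 samples and 1 in 3 samples. Over all genes of the table, 66.2% were found in a single sample, and 1 or more genes reached 14 samples. Receptor genes are short, however, with a median of 7.79 kb against 49.2 kb over all genes of the table, and among genes up to 10 kb the share with a single sample was 92.9% of 112 receptor genes and 96.4% of 1179 other genes. An eccDNA was found in ALS samples only for 146 receptor genes, in control samples only for 27 and in both groups for 5. These are 82.02%, 15.2% and 2.81%, compared to 75.04%, 10.9% and 14.1% over all genes and to 82.02%, 17.0% and 1.02% over other genes up to 10 kb. In 9 genes at least 2 ALS samples had one, and in 1 gene, Vmn1r35, at least 2 control samples.

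Each gene of the table was tested between the groups with the methods' t-test (two-sided, equal variances). It was called where the p-value was under 0.01 and the means of log2 PpGC lay more than 1 apart. Among the receptor genes, 0 were higher in ALS and 0 were lower, compared to 1.33% of the 8336 genes higher and 0% lower. Of the 1179 other genes up to 10 kb, 0 were called higher in ALS too. The number of receptor genes was also 0 at an unadjusted p under 0.05 by the methods' t-test, by the exact permutation test and after Benjamini-Hochberg adjustment, and limma called 0 as well. Of all genes, limma called 1.99% higher in ALS, and 0.072% passed with an adjusted p under 0.05. Over all genes, 4.199% had an unadjusted p under 0.05 by the methods' t-test and 3.72% by the exact permutation test. The methods do not give the sides of their test, and with a one-sided p, tried only after the data had been seen, the count stayed 0 for the receptor genes, beside 2.27% of all genes. The low recurrence limits the counts of receptor genes. A gene found in 2 ALS samples and no control has a two-sided exact permutation p of 0.2105 over the 92378 assignments of these 19 samples. This is the smallest exact permutation p of any receptor gene. With 5 ALS samples it would be 0.0108 and with 6 ALS samples 0.00310. No receptor gene was found in more than 2 ALS samples, whereas the genes called higher in ALS had at least 5. For 147 receptor genes (82.6%) the ALS mean exceeded the control mean and for 31 it was lower, with a median difference of 1.31, compared to 86.5% and a median difference of 1.19 over all genes, and to 82.6% and 1.46 over other genes up to 10 kb.

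The result for genes lower in ALS depended on how the load of the libraries entered the fit. With the load of each library, its genes with an eccDNA, as a covariate, Vmn2r7 alone passed the same thresholds as lower in ALS, beside 1.01% of all genes. The difference of Vmn2r7 was -8.03 (p = 0.00121 in this fit across all genes), compared to 0.49 without the covariate. Its only control value above 0 was that of control sample 1. With log2 of the load, tried only after the data had been seen, 12 receptor genes (6.74%) passed, beside 3.65% of all genes. Of these 12, 11 held their only eccDNA in control sample 1, the control with the highest load (723 genes), and without this sample no value above 0 is left for them. In the same fit without control sample 1, 0 receptor genes passed, beside 0.06% of all genes. Vmn1r35, the twelfth, differed by -10.90 with a p of 0.0128 in this fit across all genes. Only control sample 2 then held an eccDNA in Vmn1r35, and without the covariate the difference over these samples was -1.91. The covariate follows the group, since the load of 8 of the 9 ALS samples exceeded that of every control.

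Vmn1r35, a type 1 vomeronasal receptor gene at chr6:66678070-66685906 (mm10, minus strand), had the most negative difference of the receptor genes. Its log2 PpGC was 10.73 in control sample 1, from 3 split reads, and 17.21 in control sample 2, from 268 split reads. It was 0 in the other 8 controls and in all 9 ALS samples, so that the groups overlapped at 0. The control mean was 2.79 ± 6.09 (SD), and the difference of -2.79 had an exact two-sided permutation p of 0.4737. With the load as covariate the difference was -7.34 (p = 0.0569 in a permutation test that resampled the residuals 100000 times). With log2 of the load, tried only after the data had been seen, it was -12.02 (p = 0.00392, same test). Both p-values are unadjusted and take no account of how the gene was picked. Control samples 1 and 2, which alone held an eccDNA in this gene, had the highest loads of the controls (723 and 462 genes). Both fitted differences exceed the control mean in size. The coding sequence of this gene begins as follows on mm10, chr6:66679625-66679684, minus strand, read 5′ to 3′ with the start codon in capitals.
Vmn1r35: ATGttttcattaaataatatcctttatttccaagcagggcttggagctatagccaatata

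Vmn2r7, a type 2 vomeronasal receptor gene at chr3:64685044-64844765 (minus strand), was the one receptor gene found in 3 samples. Its log2 PpGC was 12.07 in control sample 1 (155 split reads), 6.81 in ALS sample 1 (4 split reads) and 8.50 in ALS sample 3 (13 split reads), and 0 in the other 16 samples. The highest value was thus that of a control, and the group means differed by 0.49 (exact permutation p = 0.861). With the load as covariate the direction turned, with a difference of -8.03 (p = 0.00121 in that fit across all genes). The split reads of all 3 samples equal those of Gm26939, a transcript annotated over the same region, so that the eccDNA cannot be assigned to either of them.

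Among the genes found in 2 ALS samples but in no control was Olfr2, which encodes the I7 odorant receptor, known for its response to octanal. Its log2 PpGC was 11.51 in ALS sample 1 (7 split reads) and 17.28 in ALS sample 8 (382 split reads), a difference of means of 3.198. Vmn1r216 had the largest difference of all receptor genes, 3.40, from 15.35 in ALS sample 1 (10 split reads) and 15.20 in ALS sample 3 (9 split reads). This gene is 1.06 kb long, and its high level therefore stands for few reads. Vmn2r93 was at 13.49 in ALS sample 4 and at 10.84 in ALS sample 5, Olfr1250 at 12.63 in ALS sample 1 and at 13.87 in ALS sample 8, and Olfr292 at 12.38 in ALS sample 5 and at 10.50 in ALS sample 9. All of these were 0 in the remaining samples and had the same exact permutation p of 0.2105. Vmn2r111 was found once in each group, at 13.49 in control sample 6 and 10.84 in ALS sample 7.

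The lowest differences after Vmn1r35 belong to genes with a single control sample, among them Tas2r113, whose value is given above. Olfr717-ps1, an olfactory receptor pseudogene of 556 bases, was at 23.60 in control sample 1 (1591 split reads), Olfr1052 at 20.94 in control sample 8 (3076 split reads) and Olfr1275 at 19.16 in control sample 4 (652 split reads). With a single control sample above 0, the exact permutation p was 1 for each of them.

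**Figure D2:**
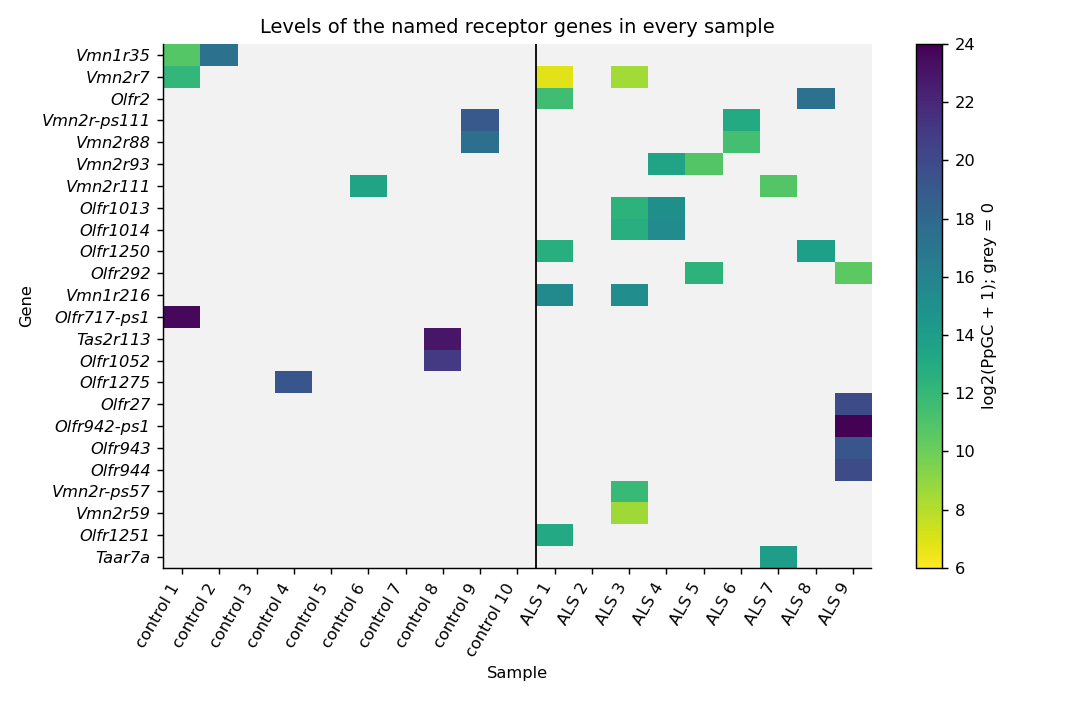
The map gives log2(PpGC + 1) of 24 receptor genes named in the text (rows) in each of the 19 samples (columns), with grey for 0 and a line between control and ALS samples. Most rows have a single filled cell or a pair of them, and Vmn2r7 has 3.

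Where a receptor gene had an eccDNA, the median number of split reads was larger in controls than in ALS, a difference that was not tested. In total, 193 values of receptor genes were above 0, 160 in ALS and 33 in control samples, and all of them gave whole split reads (within 0.02) once the length scaling was undone. They ranged from 2 to 14351 with a median of 11, compared to a median of 7 for other genes. The median was 10 in ALS samples and 78 in controls, and 117 in controls without control sample 1. In single ALS libraries the median lay between 3.5 and 26, and in the 9 control libraries with a receptor gene between 6 and 1658, so that the libraries overlapped. The other genes up to 10 kb had a median of 6 in ALS and 9 in controls. As RCA copies of a circle are not independent molecules, no counting interval was attached to these numbers. Few receptor genes per control library stand behind these medians, since all controls but sample 1 held at most 3.

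**Figure D3:**
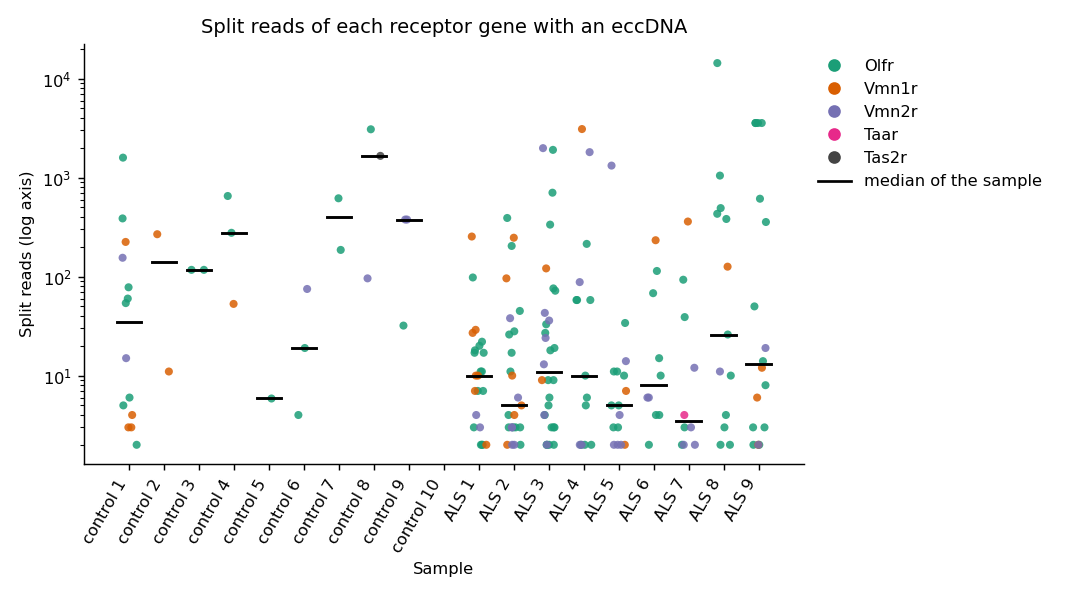
Each point is a receptor gene with an eccDNA in the sample on the horizontal axis, its height is the number of split reads on a log axis, its colour the family, and the black line the median of the sample. Points spread from 2 to 14351 split reads, and medians reach 1658 in control sample 8 and 26 in ALS sample 8.

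At least 1000 split reads were found for 14 of the 193 values (7.25%), compared to 2.52% of the values of other genes. These were 11 values in ALS (6.88% of the receptor values there) and 3 in controls (9.09%). The highest was that of Olfr722 on chromosome 14, with 14351 split reads in ALS sample 8, which is 30.4% of all receptor split reads in ALS. A run of 4 neighbours on chromosome 9 came next with 3559 each in ALS sample 9, then Vmn1r8 with 3093 in ALS sample 4 and Olfr1052 with 3076 in control sample 8. At the other end, 33 values (17.1%) rested on exactly 2 split reads, the smallest number kept by the authors, compared to 20.1% of the values of other genes.

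Of the 14 largest values, 4 come from a single place. Olfr27, Olfr942-ps1, Olfr943 and Olfr944 follow each other on chromosome 9, all on the plus strand, at chr9:39128131-39218421 (mm10). Each of them had exactly 3559 split reads in ALS sample 9 and 0 in the other 18 samples. Gm47100, a short pseudogene inside Olfr943 on the opposite strand, also had 3559. Due to the scaling by gene length, the log2 PpGC of the 4 receptor genes nevertheless ranged from 19.21 in Olfr943, which spans 26047 bases, to 23.91 in Olfr942-ps1, which spans 1000 bases. The table gives no ends of circles. If the 3559 split reads belong to 1 circle, it extends over at least 56.8 kb and at most 129.4 kb, between the neighbours Olfr941-ps1 and Olfr1537, which had no eccDNA, and holds Olfr942-ps1, Olfr943 and Gm47100 as a whole.

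**Figure D4:**
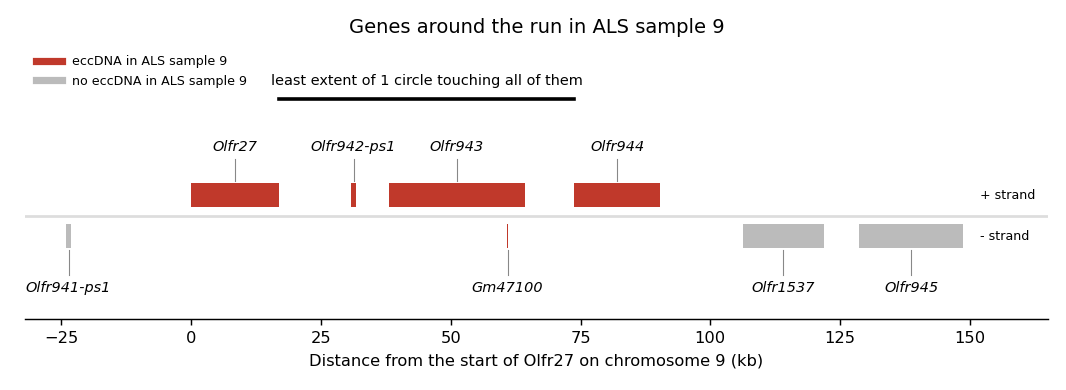
Boxes are annotated genes to scale, plus strand above and minus strand below the line, against the distance in kb from the start of Olfr27. The red genes had 3559 split reads each in ALS sample 9, the grey genes had none there, and the black bar marks the 56.8 kb between Olfr27 and Olfr944.

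The receptors of this run resemble each other and their neighbours. The coding sequences of Olfr27 and Olfr944 at its ends are identical over 93.2% of 933 bases, those of Olfr27 and Olfr943 over 87.5% and those of Olfr943 and Olfr944 over 85.6%. The nearest relative of Olfr27, however, is Olfr1537 with 95.1%, and that of Olfr943 is Olfr945 with 89.7%. Olfr1537 lies next to the run and Olfr945 lies beyond Olfr1537. Neither had an eccDNA in ALS sample 9. Outside the coding part, Olfr27 and Olfr944 also share a stretch of 8.89 kb that aligns in the same orientation with an identity of 87.2%, compared to 69.0% over 3.33 kb for Olfr27 and Olfr943. To show the likeness, 45 coding bases around the codons for Asp-Arg-Tyr, in capitals, are given for Olfr27, Olfr943 and Olfr944. The same bases follow for some of the other odorant receptors named in the text. All are read 5′ to 3′ on the coding strand of mm10. Not every named receptor was searched for this display, so that a gene not shown may also hold the motif. The motif lies at the inner end of the third transmembrane helix, where receptors of this class contact the G protein.
Olfr27, chr9:39144453-39144497, plus strand: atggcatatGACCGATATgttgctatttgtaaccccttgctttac
Olfr943, chr9:39184540-39184584, plus strand: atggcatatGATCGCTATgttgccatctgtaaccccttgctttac
Olfr944, chr9:39217710-39217754, plus strand: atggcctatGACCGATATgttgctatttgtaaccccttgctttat
Olfr1013, chr2:85770151-85770195, plus strand: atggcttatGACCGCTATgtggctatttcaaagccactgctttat
Olfr1014, chr2:85776934-85776978, plus strand: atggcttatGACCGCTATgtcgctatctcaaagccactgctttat
Olfr1250, chr2:89657050-89657094, minus strand: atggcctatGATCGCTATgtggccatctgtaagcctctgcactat
Olfr1251, chr2:89667495-89667539, minus strand: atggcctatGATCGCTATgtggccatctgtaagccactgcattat
Olfr2, chr7:107001448-107001492, minus strand: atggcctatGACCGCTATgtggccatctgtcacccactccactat
Olfr164, chr16:19286337-19286381, minus strand: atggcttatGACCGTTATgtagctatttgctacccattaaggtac
In this window, Olfr27 differs from Olfr944 at 2 bases and from Olfr943 at 4, Olfr1013 from Olfr1014 at 2 and Olfr1250 from Olfr1251 at 2, while Olfr164 differs from Olfr27 at 10 and from Olfr1250 at 16.

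The motif was about as frequent in genes with an eccDNA as in those without. Read from the translated coding sequence as Met, any residue, Tyr, Asp, Arg and Tyr, it was present in 64 of the 106 Olfr genes of the table with a coding sequence (60.4%) and in 624 of the 1085 Olfr genes that are not in the table (57.5%). It was found in no Vmn1r, Vmn2r, Taar or Tas2r gene with a coding sequence. A gene without it lacks only this exact string.

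Other neighbours also shared their split reads. Receptor genes that follow each other in a cluster, with no other annotated receptor between them, held an eccDNA in the same sample in 9 cases, and in 8 of these the numbers were equal. Olfr1013 and Olfr1014, whose annotations overlap, had 9 split reads each in ALS sample 3 (log2 PpGC 12.37 and 12.64) and 58 each in ALS sample 4 (15.06 and 15.33). Vmn2r88 and the pseudogene Vmn2r-ps111 on chromosome 14 had 377 each in control sample 9 and 6 each in ALS sample 6, and both lie inside the annotated gene Gm7247, which had the same numbers. In ALS sample 1, Olfr1250 and Olfr1251 had 11 each, and Olfr590-ps1 and Olfr591 had 17 each. Olfr615 and Olfr616, which overlap, had 117 each in control sample 3. The single case with different numbers was Vmn2r-ps57 with 36 and Vmn2r59 with 4 in ALS sample 3. Counted once each, the neighbours with equal numbers leave 183 of the 193 receptor values.

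Split reads were also shared with genes of another kind. The number of 21 values, in 17 receptor genes, equals that of such a gene within 100 kb in the same sample, the chromosome 9 run with Gm47100 and the pair inside Gm7247 included. Another case is on chromosome 16 in ALS sample 2, where Olfr164, the immunoglobulin light chain segments Iglv3 and Iglv2, the transcript A530030E21Rik and the small RNA gene Gm22158 all had 204 split reads. If these belong to 1 circle, it extends over at least 66.01 kb and at most 82.9 kb, and holds Iglv2 and A530030E21Rik as a whole.

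The receptor families were then compared with the annotation, which lists 2030 such genes. Of these, 8.77% held an eccDNA in at least 1 sample, compared to 14.6% of all 55418 annotated genes. By family, the share was 8.11% of 1406 Olfr, 8.87% of 327 Vmn1r, 13.9% of 238 Vmn2r, 1 of 16 Taar, 1 of 40 Tas2r and 0 of 3 Tas1r genes. The longer genes were found more often. Vmn2r genes of the table had a median length of 27.2 kb and the Vmn2r genes without an eccDNA one of 17.0 kb, and in Vmn1r the medians were 9.21 and 0.97 kb.

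Within classes of gene length, the share with an eccDNA was 2.68% of receptor genes and 1.70% of other genes up to 1 kb, and 7.62% and 4.25% between 2 and 5 kb. It was 9.51% and 8.37% between 5 and 10 kb, the class with the most receptor genes, and 14.8% and 14.6% between 10 and 20 kb. Above that the order turned, with 23.3% and 28.9% between 20 and 50 kb, and with 3 of 11 receptor genes against 66.9% of other genes over 50 kb. In single samples, the share of receptor genes between 5 and 10 kb averaged 0.91 ± 0.37% (SD, n = 9) over ALS samples and 0.21 ± 0.27% (SD, n = 10) over control samples. For other genes of this length it was 0.85 ± 0.28% and 0.12 ± 0.09%, which differs from the receptor genes by less than the SD of the receptor genes in both groups.

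**Figure D5:**
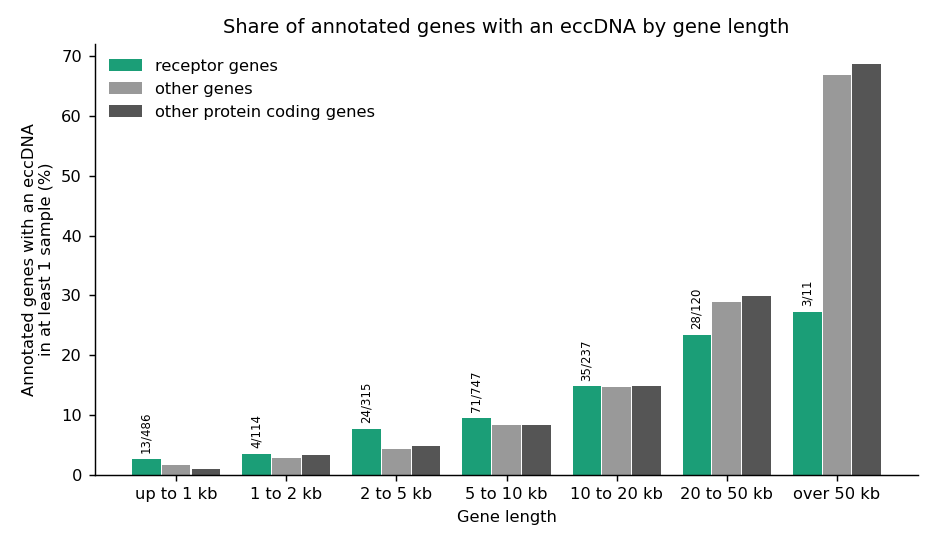
Bars give the percent of annotated genes in each class of gene length that held an eccDNA in at least 1 of the 19 samples, for receptor genes (green, with the numbers found and annotated), all other genes and other protein coding genes. In each group the share rises with length, from 2.68% to 27.3% in receptor genes and from 1.70% to 66.9% in other genes.

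Base composition set the receptor genes apart from other genes, but not those with an eccDNA from those without. Between 5 and 10 kb, the median GC content was 35.9% in receptor genes of the table and 36.6% in those not in the table, compared to 45.7% and 46.7% in other genes. Repeat-masked sequence made up 22.5% and 22.7% of the receptor genes and 20.0% of the other genes in either set. The other length classes between 2 and 50 kb had the same order of GC content between receptor and other genes.

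Reads from near-identical copies can be assigned to either copy, and how such reads were treated is not given in the sources used here. Of 160 receptor genes of the table with a coding sequence, 151 had another receptor gene aligned over most of that sequence, with a median identity of 92.4%. In 41 (25.6%) the identity was at least 95% and in 3 at least 99%, namely Olfr1359, Vmn2r30 and Vmn2r91. Among the 41 are Vmn2r7 (98.8%), Vmn1r8 (97.4%), Olfr1250 (97.1%), Vmn2r111 (96.9%), Olfr1251 (96.1%), Vmn1r35 (95.9%), Taar7a (95.5%) and Olfr27 (95.1%). The values of genes with such a near copy are thus uncertain. Other named genes lay below 95%, such as Olfr2 with 69.1% and Olfr1052 with 74.1%. Among the receptor genes not in the table, 30.8% had a copy of at least 95% and 5.08% one of at least 99%.

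The genes with an eccDNA were spread over the receptor clusters of the genome. The annotated receptor genes fell into 69 clusters, with gaps of up to 500 kb inside a cluster, and 44 single genes. Of the 40 clusters with at least 10 genes, 36 held a gene of the table. The largest cluster, chr2:85330779-90403897 with 287 genes, had 24 of them in the table (8.36%), from 13 samples that include all 9 ALS samples. Across the 11 clusters with at least 50 genes, the share ranged from 1.41% of 71 genes on chromosome 10 to 18.97% of 58 genes in a cluster of Vmn2r and Olfr genes on chromosome 7. By chromosome, 52 of 532 receptor genes on chromosome 7 were in the table, 30 of 373 on chromosome 2, 20 of 166 on chromosome 6 and 17 of 173 on chromosome 9, but 0 of 45 on chromosome 4.

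For some chromosomes the libraries themselves differed. The share of a chromosome among all genes with an eccDNA scattered between the ALS libraries with a chi-square over its degrees of freedom of 7.41 at the median of chromosomes 1 and 10 to 19. The same ratio was 0.819 on chromosomes 2 to 9 and 7.22 on X. Of the receptor genes, 49 lie on chromosomes 1 and 10 to 19, among them Vmn1r216, Vmn2r88, Vmn2r93, Vmn2r111, Olfr717-ps1, Olfr722, Olfr164 and Taar7a. On chromosomes 2 to 9 and X, the receptor genes with an eccDNA numbered 12.3 ± 4.64 (SD, n = 9) per ALS sample and 2.70 ± 3.06 (SD, n = 10) per control sample. Their share of the genes with an eccDNA on these chromosomes averaged 1.83 ± 0.50% (SD) over ALS samples and 2.40 ± 1.45% (SD) over control samples. Without X as well, the numbers were 12.2 ± 4.44 and 2.70 ± 3.06, and the shares 1.91 ± 0.51% and 2.44 ± 1.46%.

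Genes that act downstream of the receptors or control their choice were followed as lists. Of 28 genes of olfactory transduction and olfactory axon sorting, 16 were in the table and 0 were called in either direction, while 15 had a higher mean in ALS, with a median difference of 1.58. Pde1c, a calcium-dependent phosphodiesterase of olfactory cilia, was found on eccDNA in 5 ALS samples but no control, with a difference of 3.84 (exact permutation p = 0.0108). Kirrel3, an adhesion molecule of olfactory axons, held one in 6 ALS samples and 1 control, with a difference of 3.02 (exact permutation p = 0.0311). The p of both by the methods' t-test, adjusted over all genes, was 0.382. With a one-sided p, Pde1c alone of the genes in this list and in those that follow passed both thresholds (unadjusted). Cngb1 and Slc24a4, a subunit of the olfactory cation channel and a sodium/calcium/potassium exchanger, were each found in 3 ALS samples but no control. Ano2, the chloride channel of olfactory cilia, held one in 3 ALS samples and 1 control. These genes are longer than most receptors, from 67.5 kb for Cngb1 to 550.8 kb for Kirrel3.

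Of 21 genes of vomeronasal and taste transduction, 5 were in the table, namely Gnao1, Gnat3, Plcb2, Itpr3 and Plcb4, with 0 called in either direction, a higher mean in ALS in all 5 and a median difference of 0.92. Plcb4, a phospholipase C, held an eccDNA in 3 ALS samples and 2 controls (exact permutation p = 0.754). Of 22 regulators of receptor choice and of the heterochromatin around the receptor clusters, 11 were in the table, 0 were called in either direction and 9 had a higher mean in ALS, with a median difference of 1.04. Nfia, a nuclear factor I gene, held an eccDNA in 6 ALS samples and 2 controls, with a difference of 3.11 (exact permutation p = 0.0876). Ebf3, a transcription factor of the olfactory lineage, and Nfib held one in 3 ALS samples each and in no control (exact permutation p = 0.0867 for each), and Ehmt1, a histone methyltransferase, and Bcl11b, a zinc finger factor, in 2 ALS samples each. At an unadjusted exact p under 0.05, Pde1c and Kirrel3 were the only members of the 3 lists, beside 3.72% of all genes. The shares of the lists stand beside 86.5% of all genes with a higher mean in ALS, a median difference of 1.19 and 1.33% called.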

How the data were processed

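Linear DNA was digested by the authors with exonuclease V for 7 days. They amplified circles by RCA for 48 h, mapped the reads to mm10 with Circle_Finder, merged eccDNAs closer than 10 bp, removed those with fewer than 2 split reads, intersected the rest with genes using bedtools and deposited log2(PpGC + 1) values, which carry a gene length scaling but no scaling of the libraries against each other. The annotation release and the handling of reads with several matches are not given in the sources used here. The deposited table has no sequencing depth, and its split reads, 3583 to 391405 per library, are the signal itself. It held 0 columns of other samples.

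The log2 values were used as deposited. Genes were placed with GENCODE release M21 on mm10, 176 receptor genes by symbol and 2 through RefSeq synonyms (8108 genes of the table in all). Split reads were recovered by undoing the length scaling, which needs an annotated gene length. Of the 13801 values above 0 with such a length, 98.9% came out whole within 0.02. The main test was the methods' t-test, taken here as two-sided with equal variances, beside the exact permutation test and Benjamini-Hochberg adjustment over all 8336 genes. The number or share of receptor genes per sample was given no test, because the members, the lists and the alternatives were chosen with earlier results of these data known. The genes named were Vmn1r35, the 12 found in most samples (ties by split reads), the 5 highest and 5 lowest differences, the members of the 5 largest runs of neighbours, all Taar and Tas members and up to 5 genes per list. Olfr722, Vmn1r8, genes with a near copy, the neighbours of a run and the others that share reads were named after their values were seen. Python 3.11.15 with SciPy 1.17.1, R 4.3.3 with limma 3.58.1 and BLAST 2.17.0 were used. The t-test, the exact permutation test and limma without a block were tried on simulated data. The same was done for the covariate coefficient and the recovery of split reads. The permutation of residuals and the fit with a block were not checked in this way. The alternatives were another test, a load covariate, a block, other scalings and filters, and leaving out each sample.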

Additional observations from a re-analysis of the deposited data

Results flagged for a closer look

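Control sample 1 stood apart from the other controls in the number of receptor genes with an eccDNA, 14 against at most 3, with a gap of 0.786 of the range of the group. It held 8 Olfr genes, where the next control had 2, and 4 Vmn1r genes, where the next had 2. Its load of 723 genes with an eccDNA was also the highest of the controls, and its receptor share of 1.94% lay within that of the others. By its nominal rate, this rule marks about 1 in 20 groups by chance. Of the 24 named receptor genes, 16 had a single sample above 0 in at least 1 group, so that the value of the group rests on that sample.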

How the results depend on the processing

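The count of 0 receptor genes higher in ALS held in all 11 alternatives run and when each sample was left out. No receptor gene reached the 5 ALS samples that every gene called higher in ALS had at least. These runs could thus hardly give another count. The count of 0 lower in ALS became 1 with the load as covariate and 12 with log2 of the load, and was 0 otherwise. Over all genes, 111 were higher in ALS, compared to 166 by limma, 189 with a one-sided p, 68 by exact permutation, 6 after Benjamini-Hochberg adjustment, 26 with the load and 6 with the log2 load as covariate, 71 without length scaling and 9 with a pseudocount of 100 (85 to 133 without 1 sample). The median difference of the receptor genes, 1.31, became 0.74 with the load as covariate, 0.29 without length scaling, 0.57 with a pseudocount of 100 and 0.49 for genes in at least 3 samples, which leaves Vmn2r7 alone (1.31 to 1.46 without 1 sample). The receptor genes per sample, 14.5 more in ALS, became 9.22 with at least 4 split reads and ranged from 12.95 to 15.7 without 1 sample. The share of receptor genes, 0.08 percentage points lower in ALS, had a difference of -0.80 with at least 4 split reads and of -0.56 on chromosomes 2 to 9 and X (-0.535 without X), and ranged from -0.24 to 0.11 without 1 sample, so that its sign changed within the spread of the samples. The difference of Vmn1r35, -2.79 (exact permutation p = 0.4737), was -7.34 with the load (unadjusted p = 0.0569, permutation of residuals). With the log2 load, tried only after the data had been seen, it was -12.02 (unadjusted p = 0.00392, same test). It was -1.01 without length scaling and -1.47 with a pseudocount of 100, and ranged from -3.10 to -1.19 without 1 sample.

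Replicate numbers are shared by the groups, and the labels do not say that they pair the animals. The deviations of same-numbered samples correlated between -0.0205 and 0.0226. As 66.2% of all genes were found in a single sample, such correlations cannot exclude a pairing. With the replicate number as a block in limma, 0 receptor genes were higher, 0 were lower, 90 of all genes were higher, the median difference was 1.31 and Vmn1r35 differed by -3.10 (limma, unadjusted p = 0.130). The depth of each library is unknown, and circles with a single split read are missed.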
